A study of Homo sapiens with 9 samples.

Results

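The chaperones and folding enzymes of the endoplasmic reticulum (ER) were followed by RNA sequencing in MDA-MB-231 cells, an established human triple-negative breast cancer line labelled as wild type, grown without 2-deoxy-D-glucose (2-DG, a glucose analog) or with 10 mM or 20 mM of it for 24 hours. Members were chosen by gene name, from a list of ER Hsp70 and Hsp90 partners, disulfide isomerases and oxidases, lectin chaperones and prolyl isomerases, and all 43 names were found among the 61552 genes listed. The selection rule itself uses gene names and no expression value. Each dose had 3 libraries and shared the 3 control libraries, which per the study's methods received phosphate-buffered saline. All libraries come from this 1 cell line, and the labels do not say whether the 3 libraries of a group came from separate cultures, so the tests measure the spread between these libraries, which may be technical.

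Proteins that enter the ER fold there with the help of several systems. The Hsp70 protein BiP, encoded by HSPA5, binds and releases unfolded chains with J-domain partners (DNAJ proteins) and nucleotide exchange factors, and the Hsp90 protein GRP94, encoded by HSP90B1, acts on a narrower set of clients. Disulfide isomerases form and rearrange cysteine bridges and are reoxidized by ER oxidases, whereas calnexin and calreticulin hold glycoproteins through their trimmed sugar chains. Many of these genes are textbook targets of the unfolded protein response, in which the sensors ATF6, IRE1 and PERK raise the folding capacity of the ER. 2-DG is phosphorylated by hexokinase but not carried further along glycolysis, and it is also known to disturb the assembly of N-linked sugar chains.

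Expression was deposited as FPKM, the reads of a gene per kilobase of its length, scaled by the reads of the library, and library totals recovered from these values ran from 30974968 to 40843638 reads. Markers of this line were present in every library, with vimentin (VIM) between 243 and 313 FPKM, while the estrogen receptor gene ESR1 stayed at or under 0.00829 FPKM and the leukocyte gene PTPRC at or under 0.0327 FPKM. Not all genes taken beforehand as low or as markers of other cell types were absent. ERBB2 was between 5.53 and 9.11 FPKM, EPCAM between 2.61 and 4.51 and PECAM1 between 0.826 and 1.95, whereas PGR, CDH1 and ALB stayed at or under 0.417. Replicates 1 and 2 at 10 mM differed more than any other pair of replicates (Pearson's r = 0.989 across genes on the log2 scale), so each count of members was also taken without each library in turn. Their difference was related to gene length (Spearman's correlation 0.388), as was that of control replicates 2 and 1 (0.342). For replicates 1 and 2 at 20 mM this correlation was -0.00116. The cause was not tested. In these bulk samples, a change in the RNA of every cell and a change in the share of cells that express a gene cannot be told apart. The gene lengths implied by the files exceeded 1.5 times the GENCODE 29 exon length for 10 members, HSP90B1, CANX, PDIA3 and ERO1B among them, by up to 2.93 times. FPKM levels of different genes therefore depend on lengths that the sources do not explain, whereas the ratio of mean FPKM of a single gene does not. Fold changes on the log2(FPKM + 1) scale, used for the calls, do depend on length in low genes, where the added 1 weighs most.

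The greater part of the list rose at each dose, with the largest log2 fold changes for HSPA5, HYOU1 and PDIA4 at both doses. Genes were called at an adjusted p under 0.05 in a limma fit of log2(FPKM + 1) over all 16572 genes that passed a filter on low reads, which all 43 members passed. At 10 mM 2-DG, 25 members were higher than in control, 1 (FKBP7) was lower and 17 were not called, whereas 12.1% of all genes tested were called higher and 17.5% lower. At 20 mM, 27 members were higher, FKBP7 was again lower and 15 were not called, against 15.4% of all genes higher and 21.6% lower. The median log2 fold change of the members was 0.52 at 10 mM and 0.56 at 20 mM, and that of all genes was -0.01 and -0.02. By the thresholds used in the study (unadjusted p under 0.05 and a log2 fold change over 1), 15 members passed at 10 mM and 16 at 20 mM, P4HB being the one added, while 0.579% and 0.965% of all genes did. The study took its fold changes from DESeq2, and log2(FPKM + 1) shrinks those of low genes: 18 and 20 members passed with a pseudocount of 0.1 FPKM, and 19 and 20 with limma-voom on recovered reads. Control and treated libraries did not overlap, with every treated library higher, for 26 members at 10 mM and 30 at 20 mM (17.8% and 23.3% of all genes), and every treated library was lower for 2 and 4 members (22.7% and 29.9% of all genes). Both doses used the same control libraries, so their lists are not independent of each other.

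**Figure D1:**
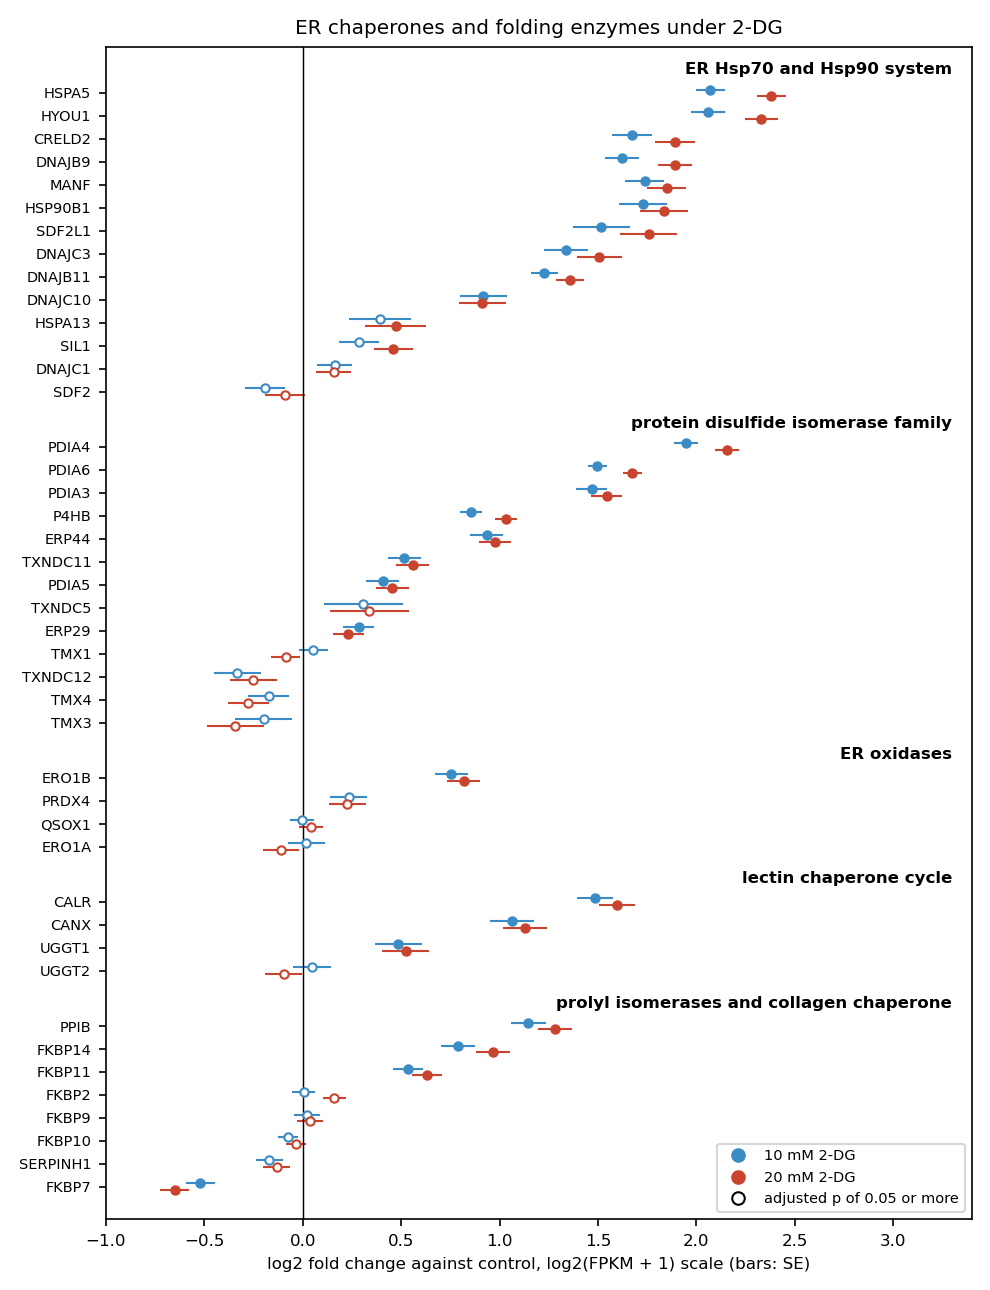
Log2 fold change of each of the 43 members against control on the log2(FPKM + 1) scale (x axis), by gene and role (y axis), at 10 mM (blue) and 20 mM 2-DG (red). Points are estimates of the limma fit, bars are SE, and filled points have an adjusted p under 0.05. HSPA5 and HYOU1 lie farthest to the right (2.38 and 2.33 at 20 mM) and FKBP7 farthest to the left (-0.65).

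Of the 14 members of the Hsp70 and Hsp90 system, 10 rose at 10 mM and 12 at 20 mM, none fell, and the median log2 fold change was 1.43 and 1.63. HSPA5 (chr9:125234853-125241330, minus strand, GRCh38, annotation of GENCODE 29), the gene of BiP, was at 249, 236 and 251 FPKM in the 3 control libraries, at 1054, 990 and 1059 FPKM at 10 mM and at 1297, 1280 and 1268 FPKM at 20 mM. The 3 groups did not overlap and stood in the order of the dose. Mean FPKM was 4.22-fold higher than control at 10 mM (log2 fold change 2.07 ± 0.07 SE, limma adjusted p = 4.56e-07) and 5.22-fold higher at 20 mM (2.38 ± 0.07, limma adjusted p = 1.43e-07). The 250 bases before the RefSeq start of HSPA5 (chr9:125241344-125241593, minus strand, GRCh38.p14) are shown because they hold the textbook ER stress response element (ERSE), whose outer letters CCAAT and CCACG, 9 bases apart, are in capitals (chr9:125241391-125241409), 47 bases before the start.
HSPA5 promoter: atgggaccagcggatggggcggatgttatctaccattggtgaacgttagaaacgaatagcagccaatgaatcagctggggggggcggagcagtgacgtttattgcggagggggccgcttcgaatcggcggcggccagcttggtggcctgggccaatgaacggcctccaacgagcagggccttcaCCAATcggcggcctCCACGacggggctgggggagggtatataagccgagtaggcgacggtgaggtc

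Exchange factors and co-chaperones of BiP moved to different extents. HYOU1, a large Hsp70 relative that releases nucleotide from BiP, went from 72.1, 74.5 and 67.3 FPKM in control to 336, 265 and 303 FPKM at 10 mM and 370, 356 and 361 FPKM at 20 mM, 4.23-fold and 5.08-fold over the control mean (limma adjusted p = 8.68e-07 and 1.72e-07). SIL1, the other exchange factor on the list, was at 14.1, 13.1 and 13.3 FPKM in control and at 18.6, 20.1 and 18.1 FPKM at 20 mM, a 1.40-fold rise (log2 fold change 0.46 ± 0.10, limma adjusted p = 0.00539). Its 10 mM libraries, at 14.3, 19.7 and 16.3 FPKM, did not pass the test (limma adjusted p = 0.0557), but did without the first of them (limma adjusted p = 0.0107). The fold of SIL1 was below that of HYOU1 at each dose, and the difference between these genes was not tested. Of the J-domain genes, DNAJB9, whose protein helps to direct misfolded chains to degradation, rose 3.26-fold and 3.94-fold, DNAJC3 2.79-fold and 3.12-fold, DNAJB11 2.62-fold and 2.88-fold, and DNAJC10, which also carries thioredoxin domains and reduces disulfides, 2.04-fold and 2.03-fold (ratios of mean FPKM at 10 mM and 20 mM). DNAJB9 was at 9.78, 10.7 and 12.3 FPKM in control and reached 44.7, 42.7 and 41.9 FPKM at 20 mM. DNAJC1, a membrane-bound J-domain gene, was not called at either dose (log2 fold change 0.16 ± 0.09 at each), although it was at 10 mM without replicate 1 of that dose (limma adjusted p = 0.0197).

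Of the further members of this system, MANF, CRELD2 and HSP90B1 rose at both doses. MANF, an ER protein first described as a neurotrophic factor, was at 86.5, 71.1 and 81.1 FPKM in control and at 292, 295 and 278 FPKM at 20 mM, a 3.62-fold rise (log2 fold change 1.85 ± 0.10, limma adjusted p = 1.06e-06). CRELD2, a disulfide isomerase-like ER protein, was at 6.09, 4.44 and 4.68 FPKM in control and at 21.3, 21.7 and 21.0 FPKM at 20 mM (4.21-fold, limma adjusted p = 1.06e-06). No control library of either gene came near the treated ones. HSP90B1 was at 86.3, 80.9 and 104 FPKM in control, 255, 306 and 347 FPKM at 10 mM and 312, 337 and 321 FPKM at 20 mM, 3.35-fold and 3.58-fold over control (limma adjusted p = 9.72e-06 and 3.66e-06). Its 10 mM libraries spread widely and overlapped those at 20 mM. HSPA13 (also called STCH), a divergent ER Hsp70, was at 9.05, 12.6 and 11.7 FPKM in control, 18.5, 11.6 and 15 FPKM at 10 mM and 15.7, 14.7 and 16.6 FPKM at 20 mM. It passed only at 20 mM (1.41-fold, log2 fold change 0.47 ± 0.16, limma adjusted p = 0.0375), and that call did not hold without replicate 1 or 3 of control, replicate 3 of 10 mM or any 1 library of 20 mM (limma adjusted p between 0.0530 and 0.125). At 10 mM it passed without replicate 2 of that dose (limma adjusted p = 0.0133).

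SDF2 and SDF2L1, which encode closely related partners of the BiP and DNAJB11 complex, did not move together. SDF2L1 was at 44.6, 32.1 and 30.6 FPKM in control, 97.7, 121 and 92.1 FPKM at 10 mM and 129, 124 and 112 FPKM at 20 mM. This was a 2.90-fold and a 3.41-fold rise (limma adjusted p = 5.82e-05 and 1.44e-05). SDF2 was at 22.2, 19.9 and 22.7 FPKM in control and at 20.5, 21.5 and 18.6 FPKM at 20 mM, with overlapping groups and no call (log2 fold change -0.09 ± 0.10, limma adjusted p = 0.527). At 10 mM its log2 fold change was -0.19 ± 0.10, called only without replicate 2 of that dose (limma adjusted p = 0.0231).

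**Figure D2:**
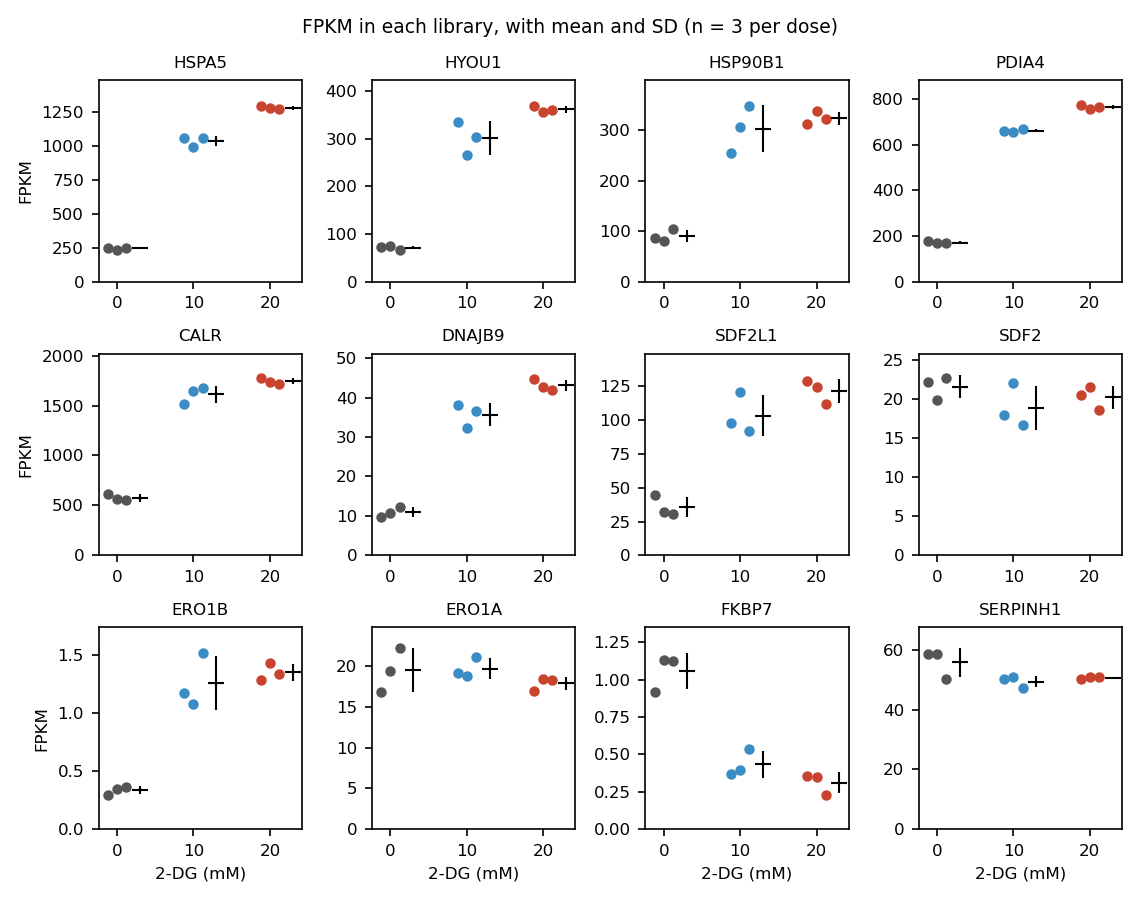
FPKM (y axis, from 0, a separate scale for each gene) of 12 members in each library against the dose of 2-DG (x axis, mM). Points are libraries and the cross beside them is the mean with its SD (n = 3). HSPA5, PDIA4 and DNAJB9 separate by dose, SDF2 and ERO1A overlap between control and both doses, and FKBP7 is lower in every treated library.

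Among the 13 protein disulfide isomerase (PDI) family members, the enzymes named PDIA rose without exception, and the 3 membrane-anchored TMX genes were not called. At each dose 8 members rose and none fell, with a median log2 fold change of 0.41 and 0.46. PDIA4 (ERp72) was at 178, 167 and 168 FPKM in control, 660, 656 and 668 FPKM at 10 mM and 773, 757 and 765 FPKM at 20 mM. The libraries of each group lay close together and the groups did not overlap, and the gene rose 3.87-fold and 4.47-fold (log2 fold change 1.95 ± 0.06 and 2.15 ± 0.06, limma adjusted p = 4.56e-07 and 1.43e-07). PDIA6, which also acts on the sensor IRE1, rose from 38.9, 40.0 and 39.9 FPKM to 129, 127 and 130 FPKM at 20 mM (3.25-fold, limma adjusted p = 1.43e-07). PDIA3 (ERp57), the isomerase that works with calnexin and calreticulin, rose from 32.7, 29.9 and 33.9 FPKM to 94.5, 97.5 and 94.8 FPKM (2.97-fold, limma adjusted p = 8.56e-07). P4HB, the classical PDI, rose less, from 99.4, 94.0 and 91.8 FPKM to 199, 194 and 193 FPKM (2.06-fold, limma adjusted p = 1.17e-06).

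ERP44, which retains oxidases and immature proteins in the early secretory pathway, rose 2.12-fold and 2.18-fold. Smaller changes were seen for TXNDC11 (1.49-fold and 1.54-fold) and PDIA5 (1.37-fold and 1.43-fold). ERP29, a chaperone-like member without a redox site, was at 101, 91.2 and 92.4 FPKM in control, 103, 122 and 123 FPKM at 10 mM and 110, 116 and 109 FPKM at 20 mM. Its calls were close to the threshold (1.22-fold, limma adjusted p = 0.0216 at 10 mM, and 1.17-fold, limma adjusted p = 0.0415 at 20 mM). At 10 mM the call was lost without replicate 2 or 3 of control or of 10 mM (limma adjusted p between 0.0535 and 0.0743), and at 20 mM without replicate 2 or 3 of control or any 1 library of 20 mM (limma adjusted p between 0.0773 and 0.139). The 3 membrane-anchored thioredoxins were not called. TMX1 had a log2 fold change of -0.09 ± 0.07 at 20 mM, TMX3 of -0.34 ± 0.14 (limma adjusted p = 0.0901) and TMX4 of -0.28 ± 0.11 (limma adjusted p = 0.0651). Without replicate 1 of control TMX3 and TMX4 passed as lower at 20 mM (limma adjusted p = 0.0217 and 0.0487), and TMX4 also without replicate 2 of 10 mM (limma adjusted p = 0.0337). TXNDC5 and TXNDC12 were not called either, and both are uncertain, since 60.6% and 49.7% of their exon bases in GENCODE 29 also belong to other genes, for TXNDC5 to a readthrough transcript with BLOC1S5. TXNDC12 passed as lower at 10 mM without replicate 2 of 20 mM (log2 fold change -0.33, limma adjusted p = 0.0250).

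The oxidases behaved as single genes. ERO1A and ERO1B both pass electrons from PDI to oxygen, and ERO1A was at 16.9, 19.4 and 22.2 FPKM in control, 19.1, 18.8 and 21.1 FPKM at 10 mM and 17.0, 18.4 and 18.3 FPKM at 20 mM. It was not called (log2 fold change -0.11 ± 0.09 at 20 mM, limma adjusted p = 0.390). ERO1B was far lower in control, at 0.295, 0.348 and 0.362 FPKM, and reached 1.18, 1.08 and 1.52 FPKM at 10 mM and 1.29, 1.43 and 1.34 FPKM at 20 mM. Every treated library was above every control library, and the ratio of mean FPKM was 3.76 and 4.04. On the log2(FPKM + 1) scale, which understates changes of low genes, this was 0.75 ± 0.08 and 0.82 ± 0.08 (limma adjusted p = 0.000144 and 5.78e-05), so that ERO1B missed the study's fold threshold. Values on this scale depend on the gene length, for ERO1B 15361 bases in the deposited values against 5361 in GENCODE 29. The rise of ERO1B rested on 548 recovered reads in the control group, 2117 at 10 mM and 2170 at 20 mM. PRDX4, a peroxiredoxin that uses hydrogen peroxide in the ER, and QSOX1, a sulfhydryl oxidase, were not called (log2 fold change 0.23 ± 0.09 and 0.04 ± 0.06 at 20 mM). PRDX4 passed as higher at 20 mM without replicate 1 or 2 of 10 mM (limma adjusted p = 0.0388 and 0.0132), and at 10 mM without replicate 1 of that dose (limma adjusted p = 0.0204).

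In the lectin chaperone cycle, calreticulin (CALR), calnexin (CANX) and the glucosyltransferase UGGT1, which marks unfolded glycoproteins for another round, rose at both doses. CALR was at 619, 560 and 550 FPKM in control, 1515, 1646 and 1672 FPKM at 10 mM and 1773, 1740 and 1713 FPKM at 20 mM, a 2.80-fold and a 3.02-fold rise (limma adjusted p = 4.91e-06 and 1.75e-06). CANX was at 80.7, 96.9 and 97.8 FPKM in control, 214, 161 and 206 FPKM at 10 mM and 197, 197 and 210 FPKM at 20 mM (2.11-fold and 2.19-fold, limma adjusted p = 0.000115 and 5.03e-05). Both doses of CANX lay above control and overlapped each other. UGGT1 rose 1.45-fold and 1.48-fold (limma adjusted p = 0.0126 and 0.00690), whereas its relative UGGT2 was at 1.01, 1.16 and 1.45 FPKM in control and 0.941, 1.08 and 1.15 FPKM at 20 mM and was not called (log2 fold change -0.10 ± 0.09).

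Prolyl isomerases and the collagen chaperone gave a mixed picture, with 3 of 8 higher and 1 lower at each dose and medians of 0.01 and 0.10. PPIB (cyclophilin B), an abundant ER isomerase, was at 29.4, 24.0 and 27.5 FPKM in control, 55.0, 64.6 and 63.0 FPKM at 10 mM and 68.6, 69.0 and 63.1 FPKM at 20 mM (2.26-fold and 2.48-fold, limma adjusted p = 1.60e-05 and 4.44e-06). FKBP14 rose 2.02-fold and 2.32-fold and FKBP11 1.53-fold and 1.65-fold, and both encode ER-resident FK506-binding proteins. FKBP7 moved the other way, from 0.919, 1.13 and 1.13 FPKM in control to 0.369, 0.398 and 0.538 FPKM at 10 mM and 0.356, 0.348 and 0.230 FPKM at 20 mM. All 6 treated libraries were below all 3 control libraries, at 0.411 and 0.294 times the control mean (log2 fold change -0.52 ± 0.07 and -0.65 ± 0.07, limma adjusted p = 0.000608 and 0.000110). These values rested on 756 recovered reads in control, 320 at 10 mM and 218 at 20 mM. The log2 fold changes of FKBP7 also depend on its length, 6710 bases in the deposited values against 3080 in GENCODE 29. SERPINH1 (Hsp47), the chaperone of procollagen, was not called (58.8, 58.7 and 50.3 FPKM in control, 50.5, 51.0 and 51.0 FPKM at 20 mM), but passed as lower without replicate 3 of control at 10 mM and 20 mM (log2 fold change -0.24 and -0.21, limma adjusted p = 0.0146 and 0.0231). FKBP9 was not called (log2 fold change 0.04 ± 0.07 at 20 mM). Few reads stood behind FKBP2 and FKBP10, with 44 and 60 recovered reads over the control group and 65 and 45 at 20 mM, and neither was called. FKBP2 had a log2 fold change of 0.16 ± 0.06 at 20 mM (limma adjusted p = 0.0550), and passed without replicate 3 of that dose (limma adjusted p = 0.0223).

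Pairs of related genes were set against each other within each library, which removes a scaling common to all genes of the library. It does not remove differences between libraries that are related to gene length, where the paired genes differ in length, as CALR and CANX do. The 10 pairs were compared between the 3 groups with exact two-sided permutation tests of the log2 ratio, 30 tests in all, where 3 libraries against 3 cannot give a p below 0.1. No overlap between groups was left for 8 of the 10 pairs in the comparison of 10 mM with control and for 9 at 20 mM. The pairs came from lists chosen with earlier results of these data known. No share over other gene pairs was computed, so these counts only describe the pairs. HSPA5 rose against its cytosolic relative HSPA8 by 2.21 and 2.59 (log2 ratio, 10 mM and 20 mM minus control, exact p = 0.1 each, adjusted p = 0.125) and against its mitochondrial relative HSPA9 by 1.57 and 1.80 (exact p = 0.1 each, adjusted p = 0.125). Likewise, HSP90B1 rose against cytosolic HSP90AB1 by 2.00 and 2.09 and against mitochondrial TRAP1 by 2.14 and 2.30, and PPIB against cytosolic PPIA by 1.38 and 1.62 (exact p = 0.1 each, adjusted p = 0.125). Within the ER, SDF2L1 gained 1.75 and 1.88 over SDF2, and UGGT1 0.43 and 0.74 over UGGT2, while the log2 ratio of ERO1A to ERO1B fell by 1.88 at 10 mM and fell by 2.13 at 20 mM (exact p = 0.1 each, adjusted p = 0.125). In control ERO1A exceeded ERO1B by 5.86 ± 0.0717 on the log2 scale and at 20 mM by 3.72 ± 0.0455 (SD, n = 3 libraries), so ERO1A stayed the higher of the pair at the lengths used in the files. CALR and CANX differed less, by 0.41 at 10 mM (exact p = 0.2, adjusted p = 0.231) and 0.46 at 20 mM (exact p = 0.1, adjusted p = 0.125). Between the doses, 7 of the 10 pairs did not overlap (exact p = 0.1 each, adjusted p = 0.125), among them HSPA5 to HSPA8, 0.37 higher at 20 mM, PPIB to PPIA, 0.24 higher, and ERO1A to ERO1B, which fell by 0.25. The largest of these shifts, FKBP2 to FKBP1A (0.67 higher), rested on only 13 to 26 recovered FKBP2 reads per library. The other pairs were HSP90B1 to HSP90AB1, with a difference of 0.09 (exact p = 0.7), HSP90B1 to TRAP1, 0.16 (exact p = 0.3), and CALR to CANX, 0.05 (exact p = 0.8). Against control, FKBP2 to FKBP1A shifted by -0.14 at 10 mM (exact p = 0.6, adjusted p = 0.643) and 0.54 at 20 mM (exact p = 0.2, adjusted p = 0.231).

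**Figure D3:**
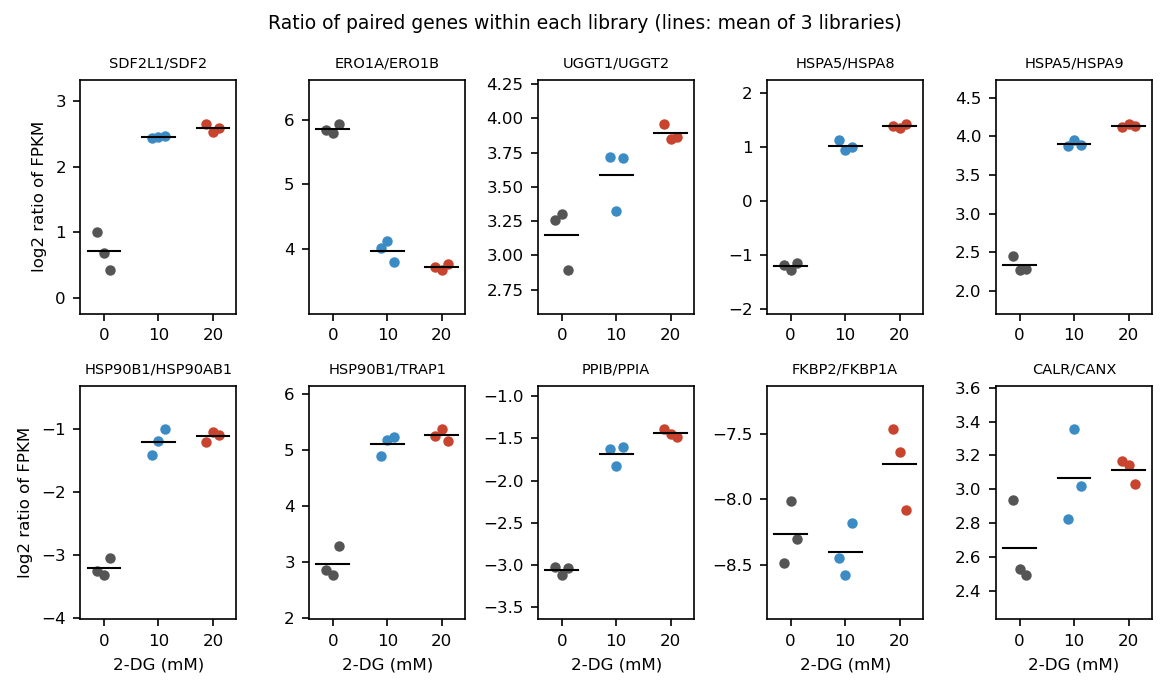
Log2 ratio of FPKM of 10 gene pairs (y axis, a separate scale for each pair that does not start at 0) in each library against the dose of 2-DG (x axis, mM). Points are libraries and lines are means of 3 libraries. The ratios of HSPA5 to HSPA8 and of SDF2L1 to SDF2 step up between control and 10 mM, and that of ERO1A to ERO1B steps down, while CALR to CANX overlaps between control and 10 mM.

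The step from 10 mM to 20 mM was small. In the direct comparison of the doses, limma called 0 of 43 members and 0.0% of all 16572 genes at an adjusted p under 0.05, and limma-voom on recovered reads also called 0 members. The median log2 difference of the members was 0.08 and that of all genes -0.01. At an unadjusted p under 0.05 there were 7 members (HSPA5, HYOU1, DNAJB9, PDIA4, PDIA6, P4HB and FKBP2), all higher at 20 mM, beside 6.87% of all genes. HSPA5 differed most, by 0.31 ± 0.07 on the log2 scale, with the lowest 20 mM library at 1268 FPKM and the highest 10 mM library at 1059 FPKM (limma adjusted p = 0.316). PDIA4 differed by 0.21 ± 0.06 (limma adjusted p = 0.461) and HYOU1 by 0.27 ± 0.09 (limma adjusted p = 0.493). The doses did not overlap for 9 members that were higher at 20 mM (HSPA5, HYOU1, DNAJB9, CRELD2, PDIA4, PDIA6, P4HB, CALR and FKBP14), beside 4.71% of all genes, and for 3 that were lower (TMX1, ERO1A and FKBP7), beside 7.14%. Since these differences failed the correction, no member is reported as changed between the doses.

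Together, the 43 members held 0.659% ± 0.00928 of all FPKM in control, 1.73% ± 0.0550 at 10 mM and 1.98% ± 0.010 at 20 mM (SD, n = 3 libraries each). As a share of recovered reads, which does not depend on the lengths used in the files, they held 1.16% ± 0.0202, 3.02% ± 0.109 and 3.38% ± 0.0135, a 2.60-fold and a 2.92-fold higher share. Of the rise in summed FPKM at 20 mM, CALR made up 28.1%, HSPA5 25.0% and PDIA4 14.3%. Of the rise in reads, HSPA5 made up 30.4%, CALR 14.7%, HSP90B1 13.7%, HYOU1 8.93% and PDIA4 8.80%. The order of HSPA5 and CALR turned with the measure. Chaperones of the cytosol (39 genes) went from 1.32% ± 0.00906 of all FPKM in control to 1.09% ± 0.0181 and 1.10% ± 0.0113, and those of mitochondria (15 genes) from 0.125% ± 0.00157 to 0.135% ± 0.00507 and 0.141% ± 0.00249. In control the cytosolic list held the larger share of FPKM, and in every treated library the ER list did, at the gene lengths used in the files.

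**Figure D4:**
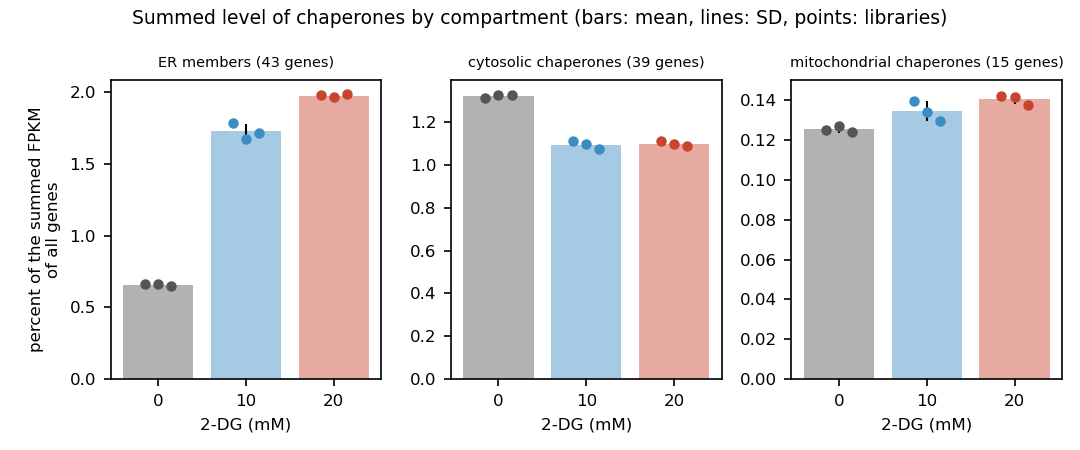
Percent of the summed FPKM of all genes (y axis, from 0, a separate scale for each list) taken by the 43 ER members, 39 cytosolic and 15 mitochondrial chaperones at 0, 10 and 20 mM 2-DG (x axis). Bars are means, lines are SD and points are the 3 libraries. The ER members went from 0.659% to 1.73% and 1.98%, and the cytosolic list from 1.32% to 1.09% and 1.10%.

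Promoters of the members were searched for the response elements known from the unfolded protein response, as a description of sequence and not as evidence of binding. RefSeq promoters, 250 bases before to 50 after the start on GRCh38.p14, were matched for 39 of the 43 members. The ERSE (CCAAT, 9 bases of any kind, then CCACG, on either strand) was present in 22 of 27305 promoters (0.0806%), and 6 of them belonged to members: HSPA5, HSP90B1, CRELD2, ERO1B, CALR and CANX. All 6 rose at both doses. The sites read as follows, 5′ to 3′ on the strand that reads CCAAT first, with the fixed letters in capitals, to show that the spacer differs between genes.
HSPA5: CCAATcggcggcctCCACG
HSP90B1 upstream site: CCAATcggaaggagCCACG
HSP90B1 downstream site: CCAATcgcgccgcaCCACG
CRELD2: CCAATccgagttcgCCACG
ERO1B: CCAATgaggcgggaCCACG
CALR: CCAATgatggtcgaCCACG
CANX: CCAATcttcacactCCACG

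The nearer site of HSP90B1 (chr12:103930321-103930339) lay 70 bases before the start and the farther one (chr12:103930216-103930234) 175. The site of CRELD2 (chr22:49918554-49918572) lay 61 bases before the start, that of CANX (chr5:179698778-179698796) 132, that of CALR (chr19:12938384-12938402) 206 and that of ERO1B (chr1:236282183-236282201) 224. The shorter ERSE-II (ATTGG, 1 base, CCACG) was found in 15 promoters (0.0549%), of which 2 were of members. HYOU1 held it at chr11:119057380-119057390 and chr11:119057274-119057284 and SDF2L1 at chr22:21642114-21642124, and both genes rose at both doses. The promoter of SDF2 held none of the 3 elements, and neither did those of the other matched members not called higher at either dose. Most matched members that rose also held none. A link between these elements and expression was not tested.
HYOU1, both sites: ATTGGaCCACG
SDF2L1: ATTGGtCCACG

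The UPR element (UPRE, TGACGTGG) was in 217 promoters (0.795%), among them those of HYOU1, where it overlapped an ERSE-II, of DNAJC10, and of TXNDC11, where it lay after the start. Most matched members that rose, PDIA4, PDIA6 and DNAJB9 among them, had none of these 3 strings in the window, which says only that these letters are not there. Beyond the members, 16 promoters held an ERSE and 8 of their genes passed the read filter. Of these, 6 were higher at 20 mM and none lower (SERP1, EIF2A, TRIM5, FICD, XBP1 and ALG12), beside 15.4% of all genes tested. SERP1 and EIF2A shared 1 site between their divergent starts, as did ALG12 and the member CRELD2. SERP1 encodes a small ER membrane protein of the translocon, and its log2 fold change was 0.77 at 10 mM and 0.90 at 20 mM (limma adjusted p = 2.97e-05 and 6.57e-06). FICD encodes the enzyme that attaches AMP to BiP and removes it, and its log2 fold change was 0.86 and 1.10 (limma adjusted p = 0.000350 and 4.98e-05). Of 9 tested genes with an ERSE-II outside the list, 2 were higher at 20 mM (HERPUD1 and NUCB1) and 4 lower (RAD9A, SETD3, SHCBP1 and GYS1).

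Other folding genes were described in the same fit, in which 15.4% of all genes tested were higher and 21.6% lower at 20 mM. Of 33 further ER folding proteins, 27 were tested, and at 20 mM 12 were higher and 5 lower, with a median log2 fold change of 0.09. AGR2, a PDI family member of secretory epithelia, rose most (log2 fold change 1.21 ± 0.09, limma adjusted p = 7.84e-06), followed by SEC63, a J-domain protein of the translocon (0.85 ± 0.08), and CLGN, a calnexin relative (0.72 ± 0.11). VKORC1L1, CNPY4 and PRKCSH, the last encoding the regulatory subunit of glucosidase II, fell by 0.59, 0.55 and 0.28 on the log2 scale. Among 20 sensors, transcription factors and other genes of the unfolded protein response, 11 were higher and 4 lower at 20 mM (median 0.26). The rises were led by TRIB3 (1.92 ± 0.09), HERPUD1 (1.80 ± 0.06) and DDIT3 (1.47 ± 0.12), of which none is a sensor. The genes of the sensors IRE1 (ERN1, 0.60 ± 0.14), PERK (EIF2AK3, 0.27 ± 0.08) and ATF6 (0.24 ± 0.08) rose less. The falls included NFYB (-0.52 ± 0.09), MBTPS2 (-0.50 ± 0.10) and CREB3L1 (-0.49 ± 0.07).

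Outside the ER, of 39 cytosolic chaperones 2 were higher (DNAJB4 and DNAJB6) and 19 lower at 20 mM, with a median log2 fold change of -0.17. The largest falls were those of the heat-inducible HSPA1A (-0.86 ± 0.11), FKBP5 (-0.85 ± 0.11) and HSPB1 (-0.84 ± 0.11). HSPA1A is nearly identical to HSPA1B, so reads between these genes may have been split. Of 15 mitochondrial chaperones and proteases, 4 were higher and 3 lower (median 0.00), the share lower being close to that of all genes. HSPA9, the mitochondrial Hsp70, rose by 0.57 ± 0.06, LONP1 by 0.61 ± 0.08 and CLPB by 0.44 ± 0.09, whereas HSPE1 fell by 0.65 ± 0.16, TRAP1 by 0.41 ± 0.07 and HSPD1 by 0.22 ± 0.07. No test of one list against another was made.

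**Figure D5:**
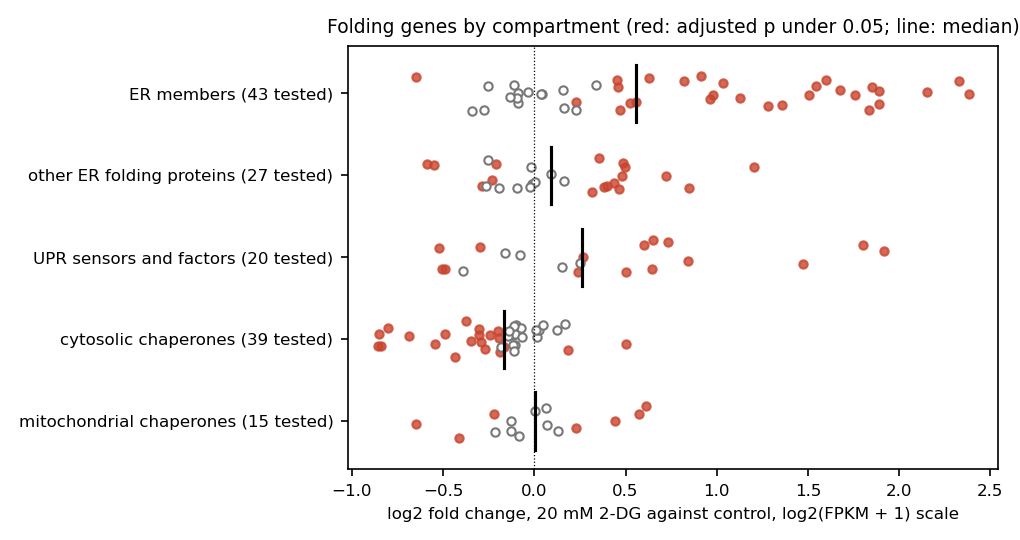
Log2 fold change at 20 mM 2-DG against control on the log2(FPKM + 1) scale (x axis) for the ER members and 4 further gene lists (y axis). Points are genes, red where the limma adjusted p is under 0.05, and black lines are medians (0.56 for the ER members, 0.09, 0.26, -0.17 and 0.00 for the lists below). Points are spread vertically only for visibility.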

How the data were processed

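RNA of MDA-MB-231 cells was sequenced by the authors (SMARTER mRNA-Seq kit, human build GRCh38 per the submitters' notes), who deposited 1 table of FPKM per library. The aligner, counter, strand setting and annotation are not given in the sources used here. FPKM values were found to be whole reads divided by a gene length and the library total, which gave totals and reads for 32805 of 32806 genes above 0 (99.8 to 99.9% of each total). These recovered reads are not the authors' counts. Of the members, 3 had the GENCODE 29 exon length, and 10 share over 10% of their exon bases with another gene. Besides TXNDC5 and TXNDC12, these include members called higher: PPIB (27.2%), PDIA6 (25.2%), DNAJB11 (23.2%), PDIA3 (18.9%), ERP29 (17.5%), PDIA5 (14.3%) and TXNDC11 (11.2%). SDF2, which was not called, shares 15.8%.

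A gene was tested (16572 genes) if 3 or more libraries held 10 recovered reads of it, after scaling reads to the median depth, and all libraries together 15. log2(FPKM + 1) was fitted with limma 3.58.1 (R 4.3.3; trend, all 9 libraries, no block), with Benjamini-Hochberg adjustment over all genes tested. In data simulated for 20 mM against control (16572 genes, 200 of them changed), 94% of genes raised and 92% of genes lowered by a log2 change of 1 were recovered. The simulation gave every gene and library the same spread and changed only genes above a minimum of reads. The real replicates differed in spread, so these rates need not hold for them. Alternatives were another pseudocount, other filters, median-ratio factors, limma-voom, a replicate block, only the 2 groups compared, and each library left out. All members are reported, and of the other lists the called genes that moved most at 20 mM, up to 3 per direction, except genes found by the promoter search, which were named after their values were seen. Members and lists were chosen with earlier results of these data known. Protein sequences were not used here.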

Additional observations from a re-analysis of the deposited data

How the results depend on the processing

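Counts of members are called moved here when they changed by more than 1.5 times. By that measure 3 counts moved with another pseudocount, filter, scaling, tool, block or choice of groups: 2 members instead of 1 were called lower when only the 6 libraries of the 2 groups compared were fitted, at 10 mM (TXNDC12 added) and at 20 mM (TMX4 added), and 3 at 20 mM with limma-voom (TMX3 and TMX4 added). Members called higher stayed between 24 and 26 at 10 mM and between 25 and 28 at 20 mM in these fits. Single calls changed as well. With the 6 libraries, ERP29 lost its call at 10 mM and PRDX4 gained one at 20 mM. SIL1 gained one at 10 mM with limma-voom (adjusted p = 0.0422) and among genes with a mean FPKM of at least 1 (adjusted p = 0.0440). That filter tested 39 members and left out ERO1B, called higher at both doses in the main fit, FKBP7, called lower, and FKBP2 and FKBP10. The 1 member it called lower was TXNDC12 at 10 mM and TMX4 at 20 mM. Scaling by median-ratio factors added HSPA13 at 10 mM and FKBP2 at 20 mM as higher. With every gene above 0 tested, ERP29 lost its call at both doses and HSPA13 at 20 mM. The share of all recovered reads, an alternative added after seeing the data, gave 1.16%, 3.02% and 3.38% for the members in control, 10 mM and 20 mM 2-DG in place of the share of FPKM. Leaving out 1 library at a time gave 24 to 28 members higher and 1 to 2 lower at 10 mM, and 25 to 28 higher and 1 to 3 lower at 20 mM. In the same runs, between the doses, the difference in the log2 ratio of CALR to CANX ran from -0.0732 to 0.191 and that of HSP90B1 to HSP90AB1 from -0.0185 to 0.186, changing sign, while the other 8 pairs kept theirs. The cause was not tested.

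No pairing by replicate number was seen: same-numbered libraries of control and 10 mM had correlations of deviations of -0.40, -0.41 and 0.29. Those of control and 20 mM were 0.13, -0.10 and 0.05. Not every library correlated best with its own number (control 1 with 10 mM replicate 2, 0.52). The deviations include the differences between replicates that are related to gene length, so these correlations cannot settle whether same-numbered libraries were paired. With the replicate block, 25 members were higher at 10 mM and 25 at 20 mM, where HSPA13 and ERP29 lost their calls (adjusted p = 0.0659 and 0.0756), and 1 was lower at each.

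Log2 fold changes near 0 changed sign in single members that were not called: QSOX1 at 10 mM with median-ratio factors (0.0335), and, without 1 library at a time, TMX1 (-0.00631 to 0.0964), ERO1A (-0.0756 to 0.113), QSOX1 (-0.0623 to 0.027), UGGT2 (-0.0189 to 0.127), FKBP2 (-0.0254 to 0.0249) and FKBP9 (-0.022 to 0.0616) at 10 mM and FKBP10 at 20 mM (-0.0644 to 0.00486). Depth limits FKBP2 and FKBP10, each under 100 reads per group.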
